A study of Mus musculus with 14 samples.

Results

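Interferon-stimulated genes are the genes that cells switch on when an interferon binds its receptor, and 43 of them were followed here in donor CD4+ T cells sorted by the surface protein PSGL1. Levels are given in CPM, the read count scaled for library depth, here with TMM factors. The 43 genes were chosen by name, and a gene was kept where it reached 1 CPM, for this rule without TMM factors, in at least 2 of the 14 libraries. Of the 43 genes, 42 did so and all 42 were among the 13780 genes tested of the 25017 entries deposited. The remaining one, the GTPase gene Tgtp1, had a count of 0 in every library, while its near-identical copy Tgtp2 had 406 to 1537 counts, so reads of the pair may have been counted under one name.

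The study sequenced RNA of mouse CD4+ T cells in cGVHD, the chronic disease in which transplanted donor T cells attack the host's tissues. BALB/c hosts were transplanted with T cell-depleted bone marrow of C57BL/6 (B6) donors. Hosts given donor splenocytes in addition developed cGVHD, and hosts given none stayed GVHD-free. All cells were donor-derived CD4+ T cells (strain label C57BL/6) taken 30 days after transplantation. The 7 groups of 2 libraries each were cGVHD lung PSGL1lo and PSGL1hi, cGVHD liver PSGL1lo and PSGL1hi, cGVHD spleen PSGL1lo and PSGL1hi, and GVHD-free spleen PSGL1lo. Because only cGVHD hosts received splenocytes, where the T cells came from and disease cannot be told apart. Whether replicates came from separate animals is not stated, so the p-values here measure only how these samples spread, and that spread may be technical.

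Libraries held 13222005 to 33532595 counts, and 3 counts, the limit that a count of 0 allows, equalled 0.0859 to 0.223 CPM, which covers counting error only. Selplg, the gene of PSGL1, had 383 and 456 CPM in lung PSGL1lo cells, against 925 and 994 CPM in lung PSGL1hi cells. It had 612 and 540 CPM in liver PSGL1lo cells, against 908 and 937 CPM in liver PSGL1hi cells. In spleen it had 280 and 238 CPM in cGVHD PSGL1lo cells, against 516 and 491 CPM in cGVHD PSGL1hi cells, so transcript and sort went the same way in each tissue. All 9 T cell markers in the table had counts in every group. Markers of other cells were present too, and summed levels of those lists are given after each set of comparisons. The spleen libraries carry other library numbers than the liver and lung libraries, so for any contrast with spleen the series of libraries and the tissue cannot be told apart. In bulk RNA, fewer cells of a type and less RNA per cell cannot be told apart.

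Type I interferons signal through the receptor chains Ifnar1 and Ifnar2 to a complex that holds Stat2 and Irf9 and binds the interferon-stimulated response element (ISRE) in front of genes such as Isg15, Ifit1 and Mx1. Interferon-gamma, a product of T cells themselves, signals through Ifngr1 and Ifngr2 to the gamma-activated site (GAS). In mice, guanylate-binding proteins (Gbp) and immunity-related GTPases (Irgm1, Irgm2, Igtp, Iigp1) are known for strong induction by interferon-gamma, while Irf7 and the antiviral effectors are better known from the type I response. Most members respond to both to some degree.

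The promoters of the members carry these letters. RefSeq promoter windows on the GRCm38.p6 assembly, each 300 bases from 250 before to 50 after a start site, were matched by symbol for 31 of the 43 members. The ISRE core, searched on both strands as a pair of GAAA half-sites with any 2 bases between them, was in 18 of 31 members (58.1%) and in 1079 of 27025 genes of the table (3.99%). The GAS letters TTCNNNGAA, a palindrome apart from the N positions, were in 10 of 31 members (32.3%) and in 2582 of 27025 genes (9.55%). Among the 8 GTPase members with a window, 8 held the ISRE core (100%) and 5 held GAS letters (62.5%), against 10 (43.5%) and 5 (21.7%) of the other 23 members. A match is a run of letters, not a measured site, and its absence concerns this window alone. The 200 bases from 150 before to 50 after the start are given below, 5′ to 3′ on the gene's own strand, for 6 members whose levels differ in the comparisons that follow; capitals mark ISRE core and GAS matches, which may overlap. Isg15, the ubiquitin-like modifier (chr4:156200769-156200968, minus strand), has 3 overlapping ISRE matches, Ifit1 (chr19:34640739-34640938, plus strand) has 2 on the reverse strand, and Rsad2 (chr12:26456403-26456602, minus strand) has 1.
Isg15: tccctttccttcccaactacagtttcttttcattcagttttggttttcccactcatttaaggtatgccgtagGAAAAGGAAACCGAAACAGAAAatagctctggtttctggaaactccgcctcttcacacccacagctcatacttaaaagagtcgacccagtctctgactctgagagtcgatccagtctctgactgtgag
Ifit1: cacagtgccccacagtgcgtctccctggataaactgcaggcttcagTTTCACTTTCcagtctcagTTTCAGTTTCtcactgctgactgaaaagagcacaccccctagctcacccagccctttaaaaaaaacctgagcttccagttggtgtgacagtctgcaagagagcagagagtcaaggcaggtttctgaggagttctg
Rsad2: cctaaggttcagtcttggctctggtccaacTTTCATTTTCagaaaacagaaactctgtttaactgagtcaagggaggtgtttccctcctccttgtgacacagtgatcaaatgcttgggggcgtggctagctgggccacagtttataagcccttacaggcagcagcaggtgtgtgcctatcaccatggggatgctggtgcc
Irgm1 (chr11:48871371-48871570, minus strand) has 2 overlapping ISRE matches, Gbp7 (chr3:142530186-142530385, plus strand) has 1 ISRE match preceded by 2 GAS matches, and Oasl2 (chr5:114896784-114896983, plus strand) has no match in these bases.
Irgm1: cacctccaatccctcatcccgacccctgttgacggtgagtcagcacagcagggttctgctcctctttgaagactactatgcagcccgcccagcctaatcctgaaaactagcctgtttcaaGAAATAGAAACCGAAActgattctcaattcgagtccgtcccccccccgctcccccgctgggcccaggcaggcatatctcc
Gbp7: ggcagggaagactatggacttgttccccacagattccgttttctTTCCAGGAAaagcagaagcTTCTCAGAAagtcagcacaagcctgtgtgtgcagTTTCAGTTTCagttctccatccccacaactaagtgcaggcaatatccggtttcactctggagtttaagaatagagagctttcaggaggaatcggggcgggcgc
Oasl2: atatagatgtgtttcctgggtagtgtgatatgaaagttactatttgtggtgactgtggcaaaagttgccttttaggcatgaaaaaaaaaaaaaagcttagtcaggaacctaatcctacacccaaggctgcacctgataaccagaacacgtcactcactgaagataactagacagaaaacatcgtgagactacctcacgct

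All 42 genes were expressed, most at modest levels, and 39 reached 1 CPM (without TMM factors) in all 14 libraries. The ratio of the highest to the lowest group mean ran from 1.4 for Igtp to 50.9 for Ifi44, with a median of 2.43, and 31 genes stayed under 3-fold. The lowest group was a lung group for 32 of the 42 genes, 16 in the PSGL1lo and 16 in the PSGL1hi fraction. The highest group was cGVHD liver PSGL1lo for 11 genes, cGVHD spleen PSGL1lo for 14, cGVHD spleen PSGL1hi for 7, GVHD-free spleen PSGL1lo for 9 and lung for 1, Isg20. Lowest and highest groups were not counted over all genes tested, so these counts do not set the members apart from other genes. Summed over the 42 genes, lung PSGL1lo libraries held 2940 and 3090 CPM and lung PSGL1hi libraries 3040 and 3320 CPM. Liver PSGL1lo libraries held 4330 and 4600 CPM and liver PSGL1hi libraries 4130 and 4100 CPM. The sums were 5100 and 5190 CPM in cGVHD spleen PSGL1lo, 4380 and 4660 CPM in cGVHD spleen PSGL1hi and 4730 and 4670 CPM in GVHD-free spleen PSGL1lo cells. Lung sums thus lay below those of every other group, with no overlap.

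**Figure D1:**
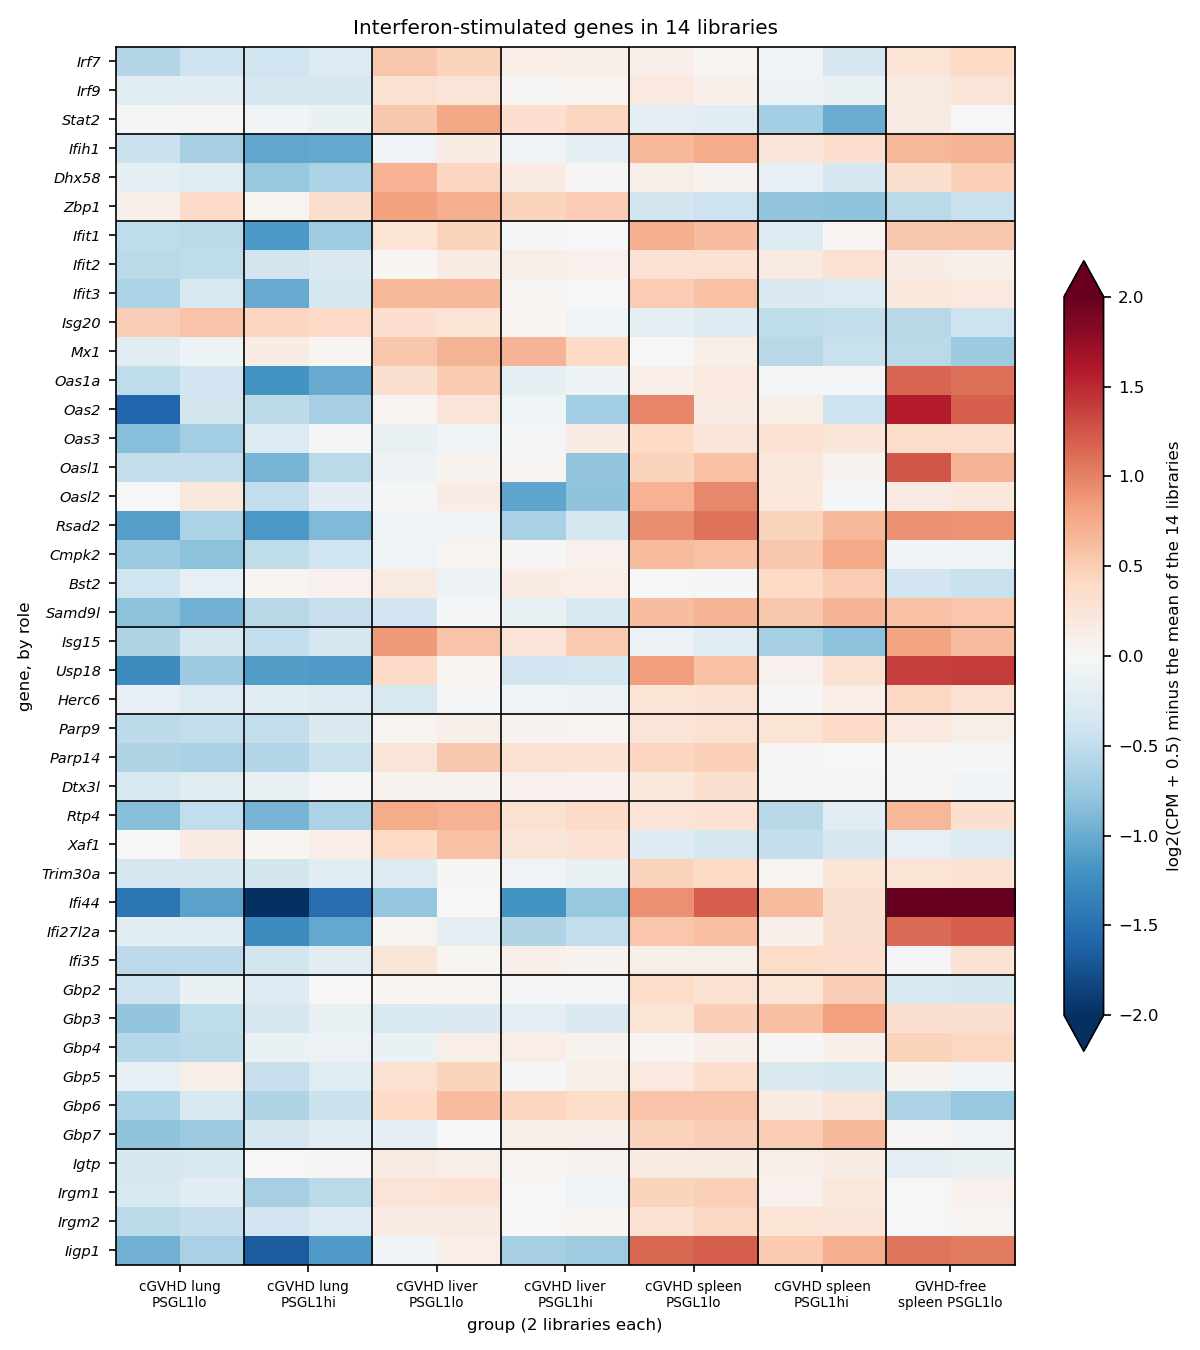
Levels of the 42 interferon-stimulated genes (rows, ordered by role: factors, sensors, antiviral effectors, ISG15 system, ADP-ribosylation, other induced genes, Gbp, immunity-related GTPases) in 14 libraries (columns, 2 per group), as log2(CPM + 0.5) minus the gene's mean over the libraries. The lung columns are blue for most genes, with Isg20 among the exceptions, and Ifi44 is highest in GVHD-free cells.

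Lung was set against liver within each fraction, both tissues coming from the same library series and the same disease. Lung CD4+ T cells carried less of most of the set. In PSGL1lo cells 36 of 42 genes were lower in lung and 1 was higher, with a median log2 change of -0.67, while of all genes tested 39.9% were called, 20.4% lower and 19.6% higher, with a median of 0. In PSGL1hi cells 30 were lower and 2 higher, with a median of -0.43, while of all genes tested 38.4% were called, 18.3% lower and 20.1% higher. Both fractions together, 29 genes were lower in both, against 12.6% of all genes tested, and Isg20 was higher in both, as were 13.3% of all genes. The 10 GTPase genes were all lower in PSGL1lo cells, and 7 of the 10 were lower in PSGL1hi cells.

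The factors of the type I response fell together. Irf7, the amplifier of the response, had 45.3 and 51.2 CPM in lung PSGL1lo cells, against 98.9 and 93 CPM in liver PSGL1lo cells (log2 change -0.99 ± 0.09 SE, adjusted p = 2.5e-08, from edgeR, adjusted over all genes tested, as is every adjusted p here). In PSGL1hi cells Irf7 had 51.8 and 56.4 CPM in lung, against 74.5 and 74 CPM in liver (log2 -0.46 ± 0.09, adjusted p = 0.0005). Irf9, the DNA-binding part of the complex, had 110 and 110 CPM in lung PSGL1lo cells, against 160 and 155 CPM in liver PSGL1lo cells (log2 -0.51 ± 0.07, adjusted p = 4.1e-06). Stat2, its partner, had 60.5 and 62.9 CPM in lung PSGL1lo cells, against 89.9 and 106 CPM in liver PSGL1lo cells (log2 -0.66 ± 0.10, adjusted p = 1.5e-05). In PSGL1hi cells Irf9 and Stat2 had log2 changes of -0.38 ± 0.07 and -0.48 ± 0.10, with adjusted p of 0.00015 and 0.00055. No lung library of a fraction reached a liver library of that fraction for any of the 3 genes. How often libraries separate in this way was not counted over all genes tested, here or below.

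Among the other members, Rtp4, a receptor transporter protein, had 17.8 and 22.8 CPM in lung PSGL1lo cells, against 54.7 and 52.6 CPM in liver PSGL1lo cells (log2 -1.40 ± 0.14, adjusted p = 4.1e-08). In PSGL1hi cells it had 16.8 and 20.8 CPM in lung, against 40.2 and 42.3 CPM in liver (log2 -1.13 ± 0.14, adjusted p = 1e-06). Usp18, the protease that removes ISG15 and dampens the receptor, had 4.37 and 6.61 CPM in lung PSGL1lo cells, against 14.7 and 11.5 CPM in liver PSGL1lo cells (log2 -1.26 ± 0.18, adjusted p = 7.4e-06). Isg15 itself had 12 and 14.3 CPM in lung PSGL1lo cells, against 33.6 and 27.5 CPM in liver PSGL1lo cells (log2 -1.22 ± 0.14). These 3 genes, of which Rtp4 and Usp18 were picked for the size of their change, were lower in every lung library than in every liver library. Oas1a, a synthetase of the RNase L activator 2-5A, had 5.88 and 6.7 CPM in lung PSGL1hi cells, against 12.4 and 13 CPM in liver PSGL1hi cells (log2 -1.01 ± 0.14, adjusted p = 4.4e-06). Parp14, an ADP-ribosyltransferase, was also lower, with 220 and 213 CPM in lung PSGL1lo cells, against 398 and 487 CPM in liver PSGL1lo cells (log2 -1.03 ± 0.08).

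A pair of genes with few counts had large but less certain changes. Oas2, another 2-5A synthetase, had 0.212 and 1.16 CPM in lung PSGL1lo cells, against 1.72 and 2.06 CPM in liver PSGL1lo cells (log2 -1.46 ± 0.52, adjusted p = 0.029). Without lung PSGL1lo replicate 1 the Oas2 change was -0.69 (adjusted p = 0.32), and without liver PSGL1lo replicate 2 it was -1.34 (adjusted p = 0.067). Ifi44 had 0.389 and 1.14 CPM in lung PSGL1hi cells, against 1.57 and 2.28 CPM in liver PSGL1hi cells (log2 -1.32 ± 0.41, adjusted p = 0.014). Without lung PSGL1hi replicate 1 it was -0.78 (adjusted p = 0.19), and without liver PSGL1hi replicate 2 it was -1.02 (adjusted p = 0.16). Both genes were still lower on average in lung, though the test no longer called them.

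Isg20, an interferon-induced exonuclease of single-stranded RNA, ran the other way. It had 65.7 and 69.5 CPM in lung PSGL1lo cells, against 59.4 and 56.4 CPM in liver PSGL1lo cells (log2 0.22 ± 0.08, adjusted p = 0.038). In PSGL1hi cells Isg20 had 62.8 and 61 CPM in lung, against 47.9 and 44.2 CPM in liver (log2 0.43 ± 0.08, adjusted p = 0.00036). The PSGL1lo call was lost when any 1 of its 4 libraries was left out (log2 0.18 to 0.26, adjusted p = 0.051 to 0.2), while the PSGL1hi call was kept in every alternative. Oasl2, an oligoadenylate synthetase-like protein, had 5.71 and 7.05 CPM in lung PSGL1hi cells, against 3.73 and 4.5 CPM in liver PSGL1hi cells (log2 0.63 ± 0.19, adjusted p = 0.012). That call was lost without liver PSGL1hi replicate 1 (log2 0.50, adjusted p = 0.12) or lung PSGL1hi replicate 2 (log2 0.47, adjusted p = 0.14). Both genes sit in the upper right of the plot of lung over liver changes.

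**Figure D2:**
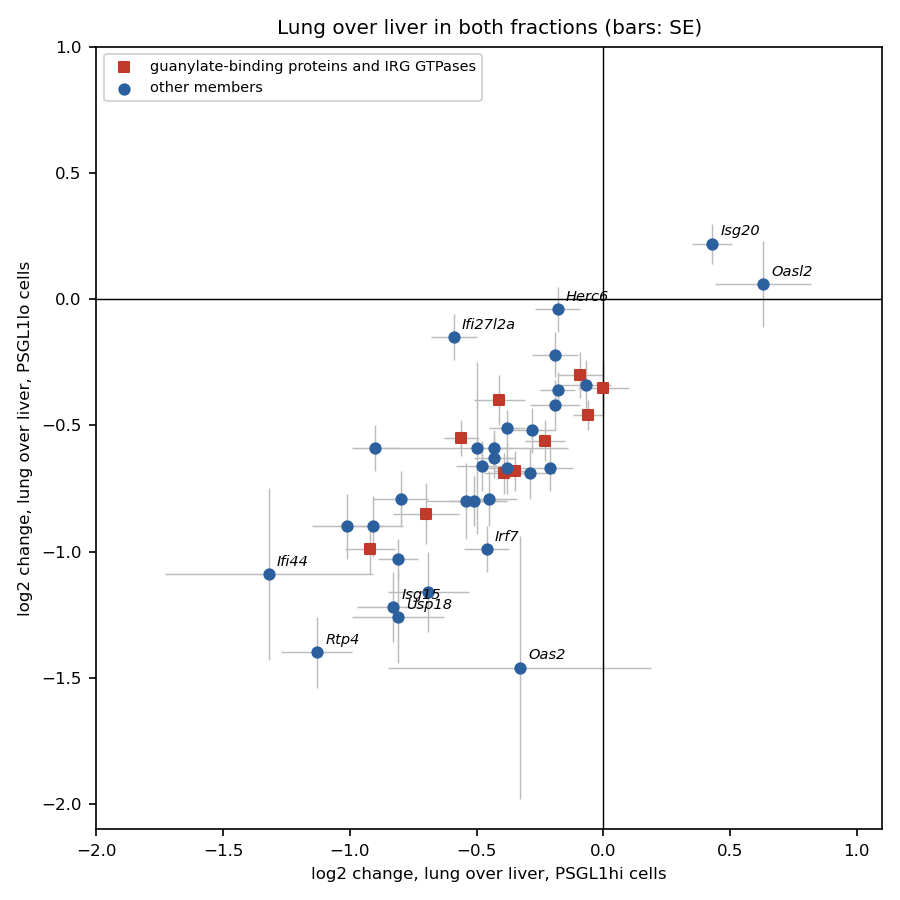
Log2 change of lung over liver in PSGL1lo cells (vertical axis) against that in PSGL1hi cells (horizontal axis) for the 42 genes, with SE bars; red squares are the 10 GTPase members and blue circles the other 32. Isg20 and Oasl2 are the points above 0 on both axes, and Isg20 alone passed the test in both fractions.

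Other lists differed between lung and liver as well. The 16 immediate early and stress genes summed to 11200 to 15200 CPM in the lung libraries, against 5510 to 7100 CPM in the liver libraries. The myeloid list of 20 genes in the table summed to 933 to 1570 CPM in lung, against 48.4 to 143 CPM in liver. In lung PSGL1lo cells Clec4f and Vsig4 of that list were at 0. The dendritic cell list summed to 659 to 955 CPM in lung, against 246 to 285 CPM in liver, with 4 of 14 genes higher and 4 lower in PSGL1lo cells and 5 higher and 1 lower in PSGL1hi cells. The NK cell list summed to 99.1 to 103 CPM in lung PSGL1lo cells, against 42.9 to 47.3 CPM in liver PSGL1lo cells. In PSGL1hi cells it summed to 220 to 230 CPM in lung, against 149 to 152 CPM in liver. Of its 4 tested genes, 3 were higher and 1 lower in lung in each fraction. The largest changes in PSGL1lo cells were those of Tyrobp (log2 3.64 ± 0.26) and Itgam (log2 2.46 ± 0.33), and Itgam is also on the myeloid list. Ncr1, Klra8 and Klra4 were at 0 in lung PSGL1lo cells, and Klra8 and Klra4 in liver PSGL1lo cells. The endothelium and stroma list summed to 149 to 218 CPM in lung, against 105 to 147 CPM in liver, with 6 of 10 tested genes higher and 1 lower in each fraction. The 20 cell cycle genes were all lower in lung PSGL1lo than in liver PSGL1lo cells, and 9 of them were lower in lung PSGL1hi than in liver PSGL1hi cells. Hepatocyte markers had 10 of 12 genes at 0 in lung PSGL1lo libraries and 6 of 12 at 0 in lung PSGL1hi libraries, with counts of all 12 in liver. The 10 lung epithelium genes all had counts in lung, while 6 were at 0 in liver PSGL1lo and 5 in liver PSGL1hi cells. The part of these in the lower interferon-stimulated genes was not tested.

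The ligands and receptors did not follow one direction. Of 21 interferon ligand genes, only Ifng passed the filter on low counts, and 18 to 20 of the 21 had a count of 0 in both libraries of each group. Ifng had 285 and 314 CPM in lung PSGL1lo cells, against 246 and 259 CPM in liver PSGL1lo cells (log2 0.25 ± 0.07, adjusted p = 0.011). In PSGL1hi cells Ifng had 475 and 441 CPM in lung, against 360 and 359 CPM in liver (log2 0.35 ± 0.07, adjusted p = 0.00069). Ifng was thus higher in lung in both fractions. Irf1, an early interferon-gamma target, fell by 0.65 ± 0.09 in PSGL1lo cells (adjusted p = 5.1e-06) and had a log2 change of -0.05 ± 0.09 in PSGL1hi cells (adjusted p = 0.68).

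Among receptor chains, Ifngr2 had 9.16 and 9.73 CPM in lung PSGL1lo cells, against 1.12 and 0.632 CPM in liver PSGL1lo cells (log2 3.37 ± 0.24, adjusted p = 4.8e-10). Ifngr1 had 447 and 483 CPM in lung PSGL1lo cells, against 462 and 482 CPM in liver PSGL1lo cells (adjusted p = 0.82), and 1520 and 1520 CPM in lung PSGL1hi cells, against 840 and 841 CPM in liver PSGL1hi cells (log2 0.85 ± 0.06). Ifnar1 fell by 0.23 ± 0.07 in PSGL1lo cells and rose by 0.35 ± 0.07 in PSGL1hi cells (adjusted p = 0.016 and 0.00068), and Ifnar2 had log2 changes of -0.06 ± 0.08 in both (adjusted p = 0.62 and 0.63). Irf8, a factor of myeloid and lymphoid cells, had log2 changes of -1.41 ± 0.08 in PSGL1lo and -1.73 ± 0.08 in PSGL1hi cells. Socs1, a feedback inhibitor of both pathways, had log2 changes of -0.63 ± 0.11 and -0.38 ± 0.11 (adjusted p = 6.9e-05 and 0.0078). Socs3, a feedback inhibitor of cytokine receptors, rose by 1.76 ± 0.09 and 1.73 ± 0.09. Of the 17 receptor, kinase, STAT and IRF genes tested, 5 were higher and 6 lower in lung PSGL1lo cells, and 6 were higher and 3 lower in lung PSGL1hi cells.

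Of 53 interferon-stimulated genes outside the 43 that were tested, 7 were higher and 22 lower in lung PSGL1lo cells, and 8 were higher and 24 lower in lung PSGL1hi cells, with medians of -0.17 and -0.19. Of 15 nucleic acid sensor and adaptor genes, 2 were higher and 8 lower in lung in each fraction. Eif2ak2, the interferon-induced kinase PKR that halts translation, had 19.8 and 19.6 CPM in lung PSGL1lo cells, against 56 and 71.7 CPM in liver PSGL1lo cells, with log2 changes of -1.69 ± 0.12 in PSGL1lo and -1.87 ± 0.12 in PSGL1hi cells. Of 15 interferon-gamma targets in antigen presentation and chemokines, 10 were lower and 2 higher in lung PSGL1lo cells, and 8 were lower and 3 higher in lung PSGL1hi cells. The higher ones included Cxcl9, an interferon-gamma-induced chemokine, with 7.55 and 16.5 CPM in lung PSGL1lo cells, against 1.63 and 1.22 CPM in liver PSGL1lo cells (log2 3.04 ± 0.29).

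PSGL1lo cells were set against PSGL1hi cells within each tissue of cGVHD mice. In spleen and liver, PSGL1lo cells carried more of the set, and in lung the changes were split. In lung, 9 genes were higher and 9 lower in PSGL1lo cells, with a median log2 change of 0.02, where 33% of all genes were called, 12.9% higher and 20.1% lower. With upper-quartile scaling the lung split was 11 higher and 6 lower, and over all genes it was 2586 higher and 1918 lower, against 1774 and 2772 with TMM scaling. In liver, 17 of 42 were higher, with a median of 0.23, where 20.8% of all genes were called, 8.5% higher and 12.3% lower. With all libraries, no gene was called lower in liver by edgeR or DESeq2. By limma voom 1 was, and 1 had an unadjusted p under 0.05 by edgeR. At least 1 edgeR fit with a library left out did call members lower in liver PSGL1lo cells. The liver count was 9 without PSGL1hi replicate 1 and 6 without PSGL1hi replicate 2. With upper-quartile scaling 1592 genes of all were higher and 1309 lower in liver PSGL1lo cells, against 1171 and 1695 with TMM scaling. In spleen, 23 of 42 were higher and 2 lower, with a median of 0.31, where 32.5% of all genes were called, 15.8% higher and 16.7% lower.

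The factors were higher in PSGL1lo cells of spleen and liver. In liver, Irf7, with the levels given above, rose by 0.37 ± 0.09 on the log2 scale in PSGL1lo cells (adjusted p = 0.005), and Irf9 and Stat2 rose by 0.24 ± 0.07 and 0.28 ± 0.10 (adjusted p = 0.014 and 0.044). In spleen, Irf7 had 73.4 and 70.6 CPM in PSGL1lo cells, against 65 and 53.8 CPM in PSGL1hi cells (log2 0.28 ± 0.09, adjusted p = 0.028). Irf9 had 148 and 139 CPM in spleen PSGL1lo cells, against 120 and 118 CPM in spleen PSGL1hi cells (log2 0.27 ± 0.07, adjusted p = 0.0047). Stat2 had 54.4 and 53.3 CPM in spleen PSGL1lo cells, against 38.2 and 30.8 CPM in spleen PSGL1hi cells (log2 0.64 ± 0.11, adjusted p = 7.2e-05). Of these, the spleen Stat2 call was kept in every alternative. The spleen Irf7 call was lost without PSGL1lo replicate 1 or 2 or PSGL1hi replicate 2 (log2 0.25, 0.31 and 0.15, adjusted p = 0.14, 0.07 and 0.33), and the spleen Irf9 call without PSGL1lo replicate 1 (log2 0.22, adjusted p = 0.063). In liver, the Irf7 call was lost without PSGL1hi replicate 2 (log2 0.36, adjusted p = 0.054). The liver Irf9 call was lost without PSGL1lo replicate 1, PSGL1hi replicate 1 or PSGL1hi replicate 2 (log2 0.21, 0.22 and 0.26, adjusted p = 0.064, 0.14 and 0.07). The liver Stat2 call was lost without PSGL1lo replicate 2, PSGL1hi replicate 1 or PSGL1hi replicate 2 (log2 0.16, 0.23 and 0.32, adjusted p = 0.28, 0.27 and 0.11). In lung the log2 changes of Irf7, Irf9 and Stat2 were -0.17 ± 0.09, 0.11 ± 0.07 and 0.10 ± 0.10, and none passed the test. With upper-quartile scaling Irf9 was called higher in lung PSGL1lo cells (log2 0.21, adjusted p = 0.023).

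In spleen, 6 of the 14 antiviral effectors had more transcript in PSGL1lo cells and 1 had less. Ifit3, whose product stabilises the RNA-binding Ifit1, had 21.5 and 22.8 CPM in spleen PSGL1lo cells, against 12.2 and 12.4 CPM in spleen PSGL1hi cells (log2 0.85 ± 0.16, adjusted p = 0.00036). Ifit1 had 68.5 and 64.1 CPM in spleen PSGL1lo cells, against 34.2 and 42.5 CPM in spleen PSGL1hi cells (log2 0.79 ± 0.12). Oasl2 had 13.6 and 16.5 CPM in spleen PSGL1lo cells, against 9.64 and 8.13 CPM in spleen PSGL1hi cells (log2 0.76 ± 0.17, adjusted p = 0.0018). Outside the effectors, Rtp4 had 38.7 and 39.9 CPM in spleen PSGL1lo cells, against 22 and 27.8 CPM in spleen PSGL1hi cells (log2 0.65 ± 0.14, adjusted p = 0.00093). In these 4 genes, picked for the size of their change, both PSGL1lo libraries lay above both PSGL1hi libraries. Bst2 (tetherin), which holds budding virus at the membrane, had 36.1 and 35.7 CPM in spleen PSGL1lo cells, against 48.2 and 51.7 CPM in spleen PSGL1hi cells (log2 -0.48 ± 0.11, adjusted p = 0.0014). Gbp3 had 118 and 137 CPM in spleen PSGL1lo cells, against 148 and 173 CPM in spleen PSGL1hi cells (log2 -0.33 ± 0.10, adjusted p = 0.013). The Gbp3 call was lost without PSGL1lo replicate 1 (log2 -0.23, adjusted p = 0.19) or PSGL1hi replicate 2 (log2 -0.21, adjusted p = 0.19).

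In liver the largest change was that of Oasl2, with 8.1 and 9.18 CPM in PSGL1lo cells, against 3.73 and 4.5 CPM in PSGL1hi cells (log2 1.06 ± 0.18, adjusted p = 0.00021). Iigp1, a GTPase that disrupts parasite vacuoles in mice, had 74.8 and 84.7 CPM in liver PSGL1lo cells, against 48.8 and 47.1 CPM in liver PSGL1hi cells (log2 0.73 ± 0.12, adjusted p = 0.00016). Ifit3 had 24 and 24 CPM in liver PSGL1lo cells, against 15.7 and 15 CPM in liver PSGL1hi cells (log2 0.65 ± 0.15, adjusted p = 0.004). For these genes, also picked for the size of their change, the fractions did not overlap. Usp18 rose by 0.62 ± 0.17 in liver PSGL1lo cells (adjusted p = 0.011). The Ifit3 call was lost without PSGL1hi replicate 2 (log2 0.61, adjusted p = 0.055), and the Usp18 call without PSGL1lo replicate 1, PSGL1hi replicate 1 or PSGL1hi replicate 2 (log2 0.42, 0.60 and 0.62, adjusted p = 0.16, 0.078 and 0.073). Calls kept in every alternative in liver were those of Oas1a, Oasl2, Ifi27l2a and Iigp1.

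In lung the members parted. Ifi27l2a, a small membrane protein, had 150 and 150 CPM in PSGL1lo cells, against 72.4 and 84.8 CPM in PSGL1hi cells (log2 0.93 ± 0.09, adjusted p = 7.5e-08). Oas1a had 9.67 and 10.7 CPM in lung PSGL1lo cells, against 5.88 and 6.7 CPM in lung PSGL1hi cells (log2 0.69 ± 0.14, adjusted p = 0.00053). Iigp1 had 39.4 and 49.3 CPM in lung PSGL1lo cells, against 24 and 34.9 CPM in lung PSGL1hi cells (log2 0.59 ± 0.13, adjusted p = 0.0014). Oasl2 had 8.18 and 9.78 CPM in lung PSGL1lo cells, against 5.71 and 7.05 CPM in lung PSGL1hi cells (log2 0.49 ± 0.18, adjusted p = 0.039). The Iigp1 call was lost without PSGL1hi replicate 1 (log2 0.35, adjusted p = 0.057). The Oasl2 call was lost with DESeq2 (adjusted p = 0.056), without PSGL1lo replicate 2 (log2 0.36, adjusted p = 0.25) and without PSGL1hi replicate 1 (log2 0.35, adjusted p = 0.27).

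On the other side in lung, Oas3, the longest of the 2-5A synthetases, had 46.8 and 52 CPM in PSGL1lo cells, against 69.5 and 83.4 CPM in PSGL1hi cells (log2 -0.63 ± 0.09, adjusted p = 1.8e-05). Gbp7 had 175 and 185 CPM in lung PSGL1lo cells, against 245 and 264 CPM in lung PSGL1hi cells (log2 -0.50 ± 0.08, adjusted p = 2.9e-05). Gbp4 had 127 and 131 CPM in lung PSGL1lo cells, against 172 and 174 CPM in lung PSGL1hi cells (log2 -0.43 ± 0.08, adjusted p = 0.0002). Gbp3 had 56.2 and 68 CPM in lung PSGL1lo cells, against 77.2 and 87.7 CPM in lung PSGL1hi cells (log2 -0.41 ± 0.10, adjusted p = 0.003). The Gbp3 call was lost without PSGL1lo replicate 1 (log2 -0.28, adjusted p = 0.084) or PSGL1hi replicate 2 (log2 -0.31, adjusted p = 0.07). Guanylate-binding proteins thus moved both ways in lung, since Gbp5 rose by 0.34 ± 0.10 (adjusted p = 0.013). The Gbp5 call was lost without PSGL1lo replicate 2 (log2 0.19, adjusted p = 0.25) or PSGL1hi replicate 1 (log2 0.23, adjusted p = 0.18). Among immunity-related GTPases, Irgm1, a regulator of autophagy, rose by 0.33 ± 0.07 and Igtp fell by 0.34 ± 0.06 (adjusted p = 0.0013 and 0.00027). The calls of Oas3, Gbp4, Gbp7 and Igtp among the lower genes, and of Ifih1, Dhx58, Oas1a, Ifi27l2a and Irgm1 among the higher ones, were kept in every alternative.

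**Figure D3:**
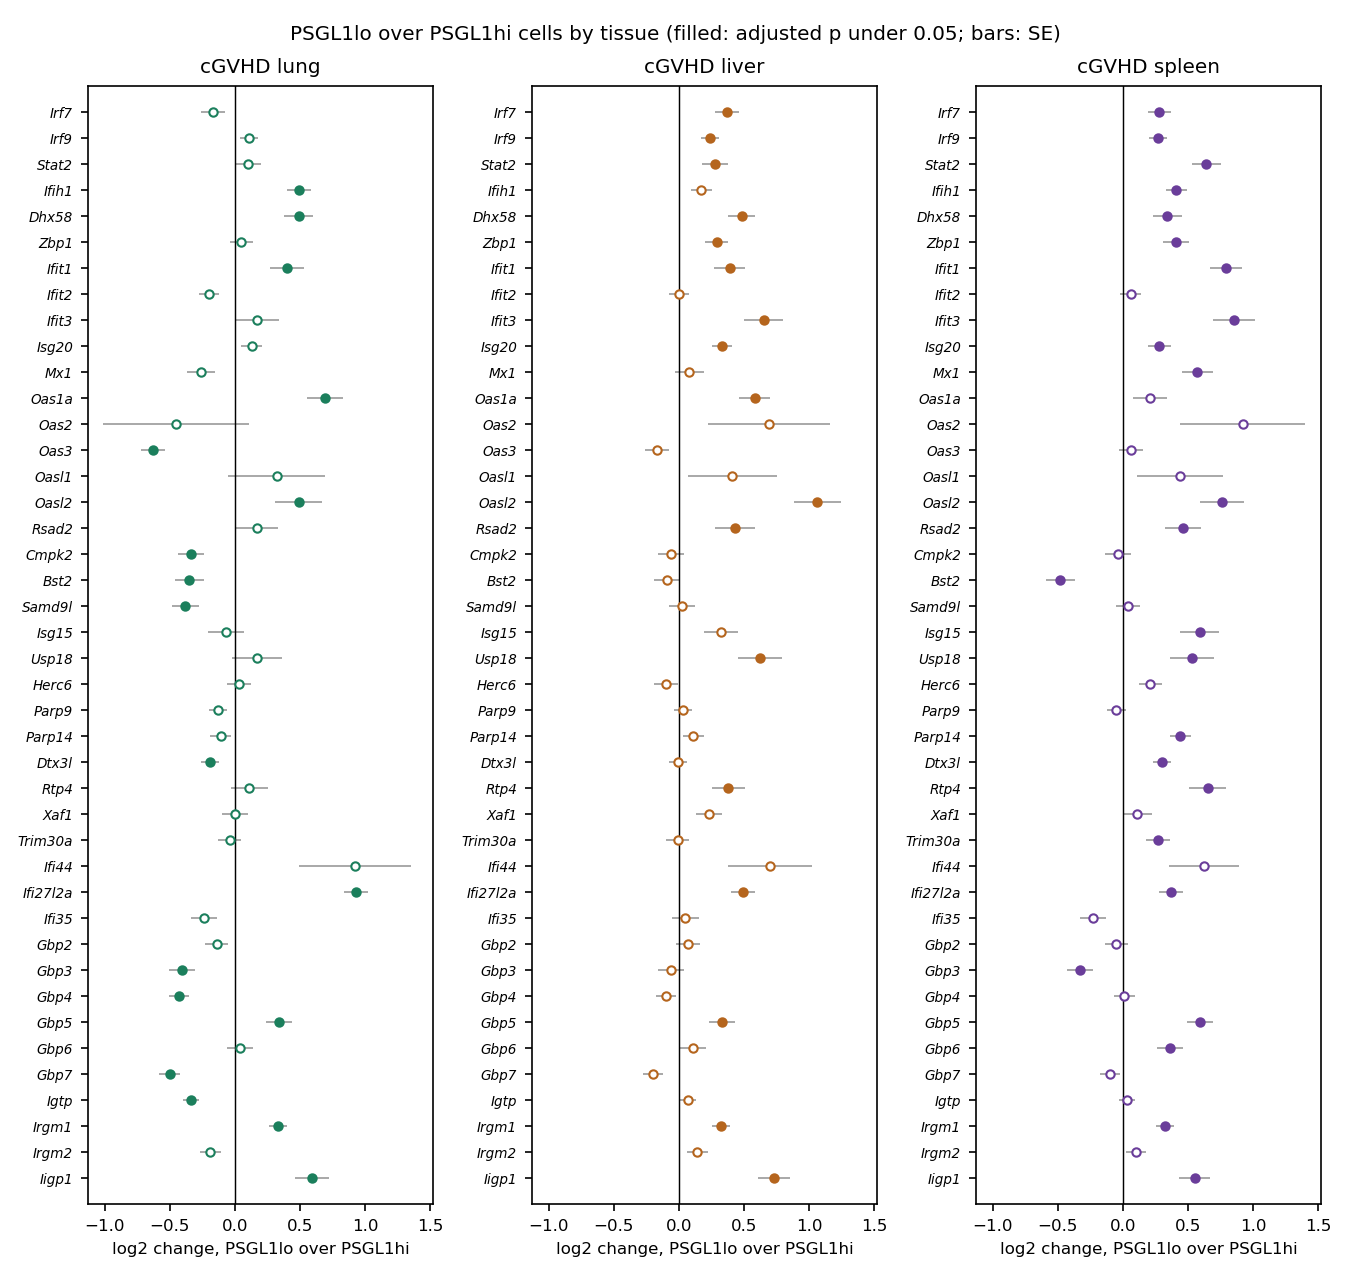
Log2 change of PSGL1lo over PSGL1hi cells with SE bars for the 42 genes (rows, by role) in cGVHD lung, liver and spleen; filled points passed the test. Ifi27l2a lies right of 0 in each tissue, while Oas3, Gbp4, Gbp7 and Igtp are filled left of 0 in lung and open in liver and spleen.

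Across tissues, 7 genes were higher in PSGL1lo cells of all 3: Dhx58, a regulator of RNA sensing, Ifit1, Oasl2, Ifi27l2a, Gbp5, Irgm1 and Iigp1. The Ifit1 change in lung was 0.40 ± 0.13 (adjusted p = 0.017), and it no longer passed when lung PSGL1lo replicate 1 or 2 or PSGL1hi replicate 1 was left out (adjusted p = 0.072, 0.055 and 0.31). None of the 7 genes kept its call in all 3 tissues under every omission of a library. In liver, Ifit1 lost it without PSGL1lo replicate 2, PSGL1hi replicate 1 or PSGL1hi replicate 2 (adjusted p = 0.11, 0.13 and 0.11), and Gbp5 without the first or second of these (0.093 and 0.19). Irgm1 lost its liver call without PSGL1hi replicate 2 (adjusted p = 0.058). Dhx58 lost its liver call without PSGL1lo replicate 1 or PSGL1hi replicate 2 (adjusted p = 0.056 and 0.057). It lost its spleen call without PSGL1lo replicate 1 or 2 or PSGL1hi replicate 2 (adjusted p = 0.11, 0.069 and 0.19), and Ifi27l2a lost its spleen call without PSGL1hi replicate 1 (adjusted p = 0.065). The lung losses of Oasl2, Gbp5 and Iigp1 are those given above. Over all genes tested 3.77% were higher and 6.25% lower in all 3 tissues. A further 9 genes were called higher in liver and spleen and not in lung, among them the 3 factors, Zbp1, Rsad2 and Usp18. Another 6 genes were called in lung alone, all lower there: Oas3, Cmpk2, Samd9l, Gbp4, Gbp7 and Igtp. These patterns were not counted over all genes tested, of which 20.1% were called lower and 12.9% higher in lung PSGL1lo cells. A call in one tissue and not in another is no test of a difference, so the difference of the PSGL1lo effect was tested itself.

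The log2 change of PSGL1lo over PSGL1hi cells, taken with its sign, was lower in lung than in spleen for 11 genes and higher for 1, where 16.6% of all genes were called, 5.51% higher and 11.1% lower. Mx1 had 22.5 and 24.4 CPM in lung PSGL1lo cells, against 29.3 and 27 CPM in lung PSGL1hi cells. In spleen Mx1 had 26.3 and 28.5 CPM in PSGL1lo cells, against 17.8 and 19.2 CPM in PSGL1hi cells. The lung minus spleen difference in its log2 change was -0.83 ± 0.17 (adjusted p = 0.0013). Oas3 differed by -0.69 ± 0.13, Parp14 by -0.54 ± 0.11 and Dtx3l, a ubiquitin ligase that pairs with Parp9, by -0.49 ± 0.09, with adjusted p of 0.00094, 0.0019 and 0.00099. Ifi27l2a went the other way, by 0.56 ± 0.13 (adjusted p = 0.0043). The 11 were of different kinds: Igtp had 0.03 ± 0.06 in spleen and -0.34 ± 0.06 in lung, while Isg15 had 0.59 ± 0.15 in spleen and -0.07 ± 0.14 in lung. Called lower in lung and not past the test in spleen were Oas3, Samd9l, Gbp4, Gbp7 and Igtp. With upper-quartile scaling 9 members were called in this test, and over all genes 985 were higher and 1243 lower, against 759 and 1523 with TMM scaling.

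Between lung and liver, where the library series is the same, 1 gene was called higher and 3 lower, where 5.97% of all genes were called, 2.08% higher and 3.89% lower. The lung minus liver difference in the log2 change was -0.54 ± 0.13 for Irf7, -0.46 ± 0.13 for Oas3, -0.40 ± 0.09 for Igtp and 0.44 ± 0.13 for Ifi27l2a (adjusted p = 0.014, 0.04, 0.0065 and 0.048). The Igtp call was kept in every alternative. The number called was 8 without liver PSGL1lo replicate 1, 2 without liver PSGL1hi replicate 2 and 2 without lung PSGL1hi replicate 2. It was 1 without liver PSGL1hi replicate 1 and 1 without lung PSGL1lo replicate 1. Irf7 lost its call without liver PSGL1hi replicate 1 or 2, lung PSGL1lo replicate 1 or lung PSGL1hi replicate 2 (log2 -0.45 to -0.55, adjusted p = 0.055 to 0.096). Oas3 lost it without liver PSGL1lo replicate 2, liver PSGL1hi replicate 1, lung PSGL1lo replicate 1 or lung PSGL1hi replicate 2 (log2 -0.32 to -0.41, adjusted p = 0.059 to 0.25). Ifi27l2a lost it in all single-library omissions but liver PSGL1lo replicate 1 and lung PSGL1hi replicate 2 (log2 0.32 to 0.49, adjusted p = 0.076 to 0.25). Between liver and spleen the PSGL1lo effect differed for 0 of 42 genes by edgeR, for 1 by DESeq2 and for 1 by limma voom, with 8 at an unadjusted p under 0.05, where 6.84% of all genes were called, 2.64% higher and 4.2% lower. Without liver PSGL1lo replicate 2 that count was 8, and without spleen PSGL1hi replicate 1 it was 1.

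The fractions differed in other lists too. Of the 20 cell cycle genes, 19 were lower in PSGL1lo cells of lung, 18 of liver and 20 of spleen. They summed to 804 to 867 CPM in lung PSGL1lo cells, against 1740 to 2110 CPM in lung PSGL1hi cells, and to 2310 to 2370 CPM in spleen PSGL1lo cells, against 5050 to 5310 CPM in spleen PSGL1hi cells. The CD8 T cell list of 3 genes was lower in PSGL1lo cells of each tissue, summing to 123 to 160 CPM in lung PSGL1lo cells, against 186 to 222 CPM in lung PSGL1hi cells. In spleen it summed to 80.1 to 80.2 CPM in PSGL1lo cells, against 204 to 209 CPM in PSGL1hi cells. The NK cell list summed to 99.1 to 103 CPM in lung PSGL1lo cells, against 220 to 230 CPM in lung PSGL1hi cells, and to 42.9 to 47.3 CPM in liver PSGL1lo cells, against 149 to 152 CPM in liver PSGL1hi cells. In spleen it summed to 29.3 to 34 CPM in PSGL1lo cells, against 79.9 to 88.1 CPM in PSGL1hi cells. Of the 9 hepatocyte genes tested, 6 were higher in liver PSGL1lo cells, and the list summed to 65.2 to 75.4 CPM there, against 31.2 to 35.6 CPM in liver PSGL1hi cells. Immediate early genes summed to 11200 to 13200 CPM in lung PSGL1lo cells, against 15100 to 15200 CPM in lung PSGL1hi cells, and 11 of 16 were lower and 1 higher there. They ran the other way in liver, with 6810 to 7100 CPM in PSGL1lo cells, against 5510 to 5730 CPM in PSGL1hi cells, and 7 of 16 higher and 2 lower. In spleen they summed to 6180 to 6720 CPM in PSGL1lo cells, against 5320 to 5560 CPM in PSGL1hi cells, with 7 of 16 higher and 1 lower. The immediate early sums were thus higher in PSGL1lo than in PSGL1hi cells of liver and spleen, and lower in PSGL1lo cells of lung. The dendritic cell list summed to 783 to 843 CPM in spleen PSGL1lo cells, against 1010 to 1020 CPM in spleen PSGL1hi cells. There 1 of its 14 genes was higher and 6 lower, while 3 were higher and 3 lower in liver and 2 higher and 1 lower in lung. Its largest called change in spleen was that of Siglech, a marker of plasmacytoid dendritic cells, which are known sources of type I interferon. Siglech had 0.149 and 0.0653 CPM in spleen PSGL1lo cells, against 22.6 and 24 CPM in spleen PSGL1hi cells. The myeloid list summed to 273 to 285 CPM in spleen PSGL1lo cells, against 569 to 576 CPM in spleen PSGL1hi cells, with 9 of 19 tested genes lower. In lung it summed to 1040 to 1570 CPM in PSGL1lo cells, against 933 to 1160 CPM in PSGL1hi cells, with 1 gene higher and 0 lower. In liver the sums were 48.4 to 143 CPM in PSGL1lo cells, against 57.1 to 103 CPM in PSGL1hi cells, with 0 genes higher and 1 lower. The part of these in the differences between fractions was not tested.

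Upstream of the set, the fractions differed in the receptor chains of each tissue. Ifnar2 rose by 0.66 ± 0.08 on the log2 scale in PSGL1lo cells of lung, liver and spleen alike (adjusted p = 1.7e-06, 4.3e-06 and 3.4e-06), and had 106 and 112 CPM in lung PSGL1lo cells, against 67.9 and 69.5 CPM in lung PSGL1hi cells. Ifngr1 had log2 changes of -1.71 ± 0.06 in lung, -0.83 ± 0.06 in liver and -0.74 ± 0.06 in spleen PSGL1lo cells (adjusted p = 8.1e-14, 3.5e-09 and 1.4e-08). The lung fall of Ifngr1 was larger than the liver fall by a difference of -0.88 ± 0.09 (adjusted p = 2e-06). Ifnar1 fell by 0.44 ± 0.07 in lung and rose by 0.20 ± 0.07 in spleen, and its liver change was 0.14 ± 0.07 (adjusted p = 6.6e-05, 0.044 and 0.2). Ifng had log2 changes of -0.61 ± 0.07, -0.51 ± 0.07 and -0.32 ± 0.08 in PSGL1lo cells of lung, liver and spleen (adjusted p = 9.8e-07, 2.5e-05 and 0.0021). Socs1 rose by 0.42 ± 0.11 in liver and 0.56 ± 0.11 in spleen (adjusted p = 0.0067 and 0.00032). Irf1 fell by 0.44 ± 0.09 in lung PSGL1lo cells and had log2 changes of 0.16 ± 0.09 in liver and -0.05 ± 0.09 in spleen. PSGL1lo cells of each tissue thus had more Ifnar2 transcript and less Ifng and Ifngr1 transcript than PSGL1hi cells.

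Of the 53 other interferon-stimulated genes, 18 were higher and 6 lower in lung PSGL1lo cells, 14 were higher and 3 lower in liver, and 23 were higher and 3 lower in spleen. Cxcl10, an interferon-induced chemokine, had 22.3 and 25.2 CPM in lung PSGL1lo cells, against 12.9 and 14.5 CPM in lung PSGL1hi cells. In liver Cxcl10 had 48 and 45.2 CPM in PSGL1lo cells, against 7.68 and 8.48 CPM in PSGL1hi cells (log2 2.52 ± 0.13, adjusted p = 1.1e-11). In spleen it had 26.1 and 20.7 CPM in PSGL1lo cells, against 7.49 and 7.26 CPM in PSGL1hi cells (log2 1.66 ± 0.14). Its PSGL1lo effect was smaller in lung than in liver by a log2 difference of -1.74 ± 0.18 (adjusted p = 2e-06).

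Spleen PSGL1lo cells were compared between cGVHD and GVHD-free mice. The set changed in both directions with disease. In cGVHD cells 13 of 42 genes were higher and 9 lower, with a median log2 change of 0.11, where 27.5% of all genes tested were called, 14.7% higher and 12.8% lower. Of the 10 GTPase genes, 6 were higher and 1 lower, with a median of 0.33, and of the other 32, 7 were higher and 8 lower, with a median of 0.01. The 3 factors and the 3 genes of the ISG15 system all had log2 changes below 0. Without cGVHD spleen PSGL1lo replicate 2, 14 genes were called, 9 higher and 5 lower.

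Gbp6, a guanylate-binding protein, had 101 and 101 CPM in cGVHD cells, against 44.2 and 39.8 CPM in GVHD-free cells (log2 1.26 ± 0.11, adjusted p = 6.7e-09). Mx1 had 26.3 and 28.5 CPM in cGVHD cells, against 17.9 and 15.7 CPM in GVHD-free cells (log2 0.71 ± 0.13, adjusted p = 0.00016). Cmpk2, a mitochondrial nucleotide kinase next to Rsad2, had 51.7 and 49.6 CPM in cGVHD cells, against 31.9 and 31.2 CPM in GVHD-free cells (log2 0.68 ± 0.10, adjusted p = 2.1e-05). The groups did not overlap for these genes, which were picked for the size of their change. Oasl2 had 13.6 and 16.5 CPM in cGVHD cells, against 9.26 and 9.6 CPM in GVHD-free cells (log2 0.67 ± 0.18, adjusted p = 0.0068). The Oasl2 call was lost without GVHD-free replicate 1 (log2 0.65, adjusted p = 0.058) or cGVHD replicate 2 (log2 0.52, adjusted p = 0.11). Gbp2, Gbp7 and Irgm1 rose by 0.65 ± 0.10, 0.51 ± 0.08 and 0.43 ± 0.07 (adjusted p = 1.7e-05, 2.4e-05 and 0.00012).

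The 9 lower genes were 2 factors, the sensor Dhx58, the effector Oas1a, 2 genes of the ISG15 system, 2 other induced genes and Gbp4. The Dhx58 call (log2 -0.31 ± 0.11, adjusted p = 0.041) was lost with limma voom (adjusted p = 0.063) and without GVHD-free replicate 2, cGVHD replicate 1 or cGVHD replicate 2 (adjusted p = 0.28, 0.11 and 0.17). Ifi44, an induced cytoplasmic protein, had 8.42 and 10.3 CPM in cGVHD cells, against 43.3 and 34.2 CPM in GVHD-free cells (log2 -2.05 ± 0.25, adjusted p = 1.6e-06). Oas1a had 15.4 and 16.2 CPM in cGVHD cells, against 32.1 and 30.6 CPM in GVHD-free cells (log2 -0.99 ± 0.13, adjusted p = 3.2e-06). Isg15 had 16.9 and 15.5 CPM in cGVHD cells, against 32.2 and 28.5 CPM in GVHD-free cells (log2 -0.91 ± 0.14, adjusted p = 3.9e-05). Each cGVHD library lay below each GVHD-free library for these 3 genes, also picked for the size of their change. Usp18 had 20.3 and 17.1 CPM in cGVHD cells, against 29.6 and 30.2 CPM in GVHD-free cells (log2 -0.67 ± 0.16, adjusted p = 0.0032). The Usp18 call was lost without cGVHD replicate 2 (log2 -0.55, adjusted p = 0.066).

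Irf7 had 73.4 and 70.6 CPM in cGVHD cells, against 82.8 and 90.3 CPM in GVHD-free cells (log2 -0.26 ± 0.09, adjusted p = 0.042). Stat2 had 54.4 and 53.3 CPM in cGVHD cells, against 69.4 and 61.5 CPM in GVHD-free cells (log2 -0.28 ± 0.10, adjusted p = 0.048). Irf9 had 148 and 139 CPM in cGVHD cells, against 146 and 155 CPM in GVHD-free cells (log2 -0.07 ± 0.07), and its groups overlapped. The Irf7 and Stat2 calls were near the threshold. That of Irf7 was lost when any 1 of the 4 libraries was left out (log2 -0.20 to -0.33, adjusted p = 0.06 to 0.28). That of Stat2 was lost without GVHD-free replicate 1 (log2 -0.19, adjusted p = 0.35), cGVHD replicate 1 (log2 -0.30, adjusted p = 0.13) or cGVHD replicate 2 (log2 -0.27, adjusted p = 0.18). With limma voom the adjusted p was 0.054 for Irf7 and 0.07 for Stat2.

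**Figure D4:**
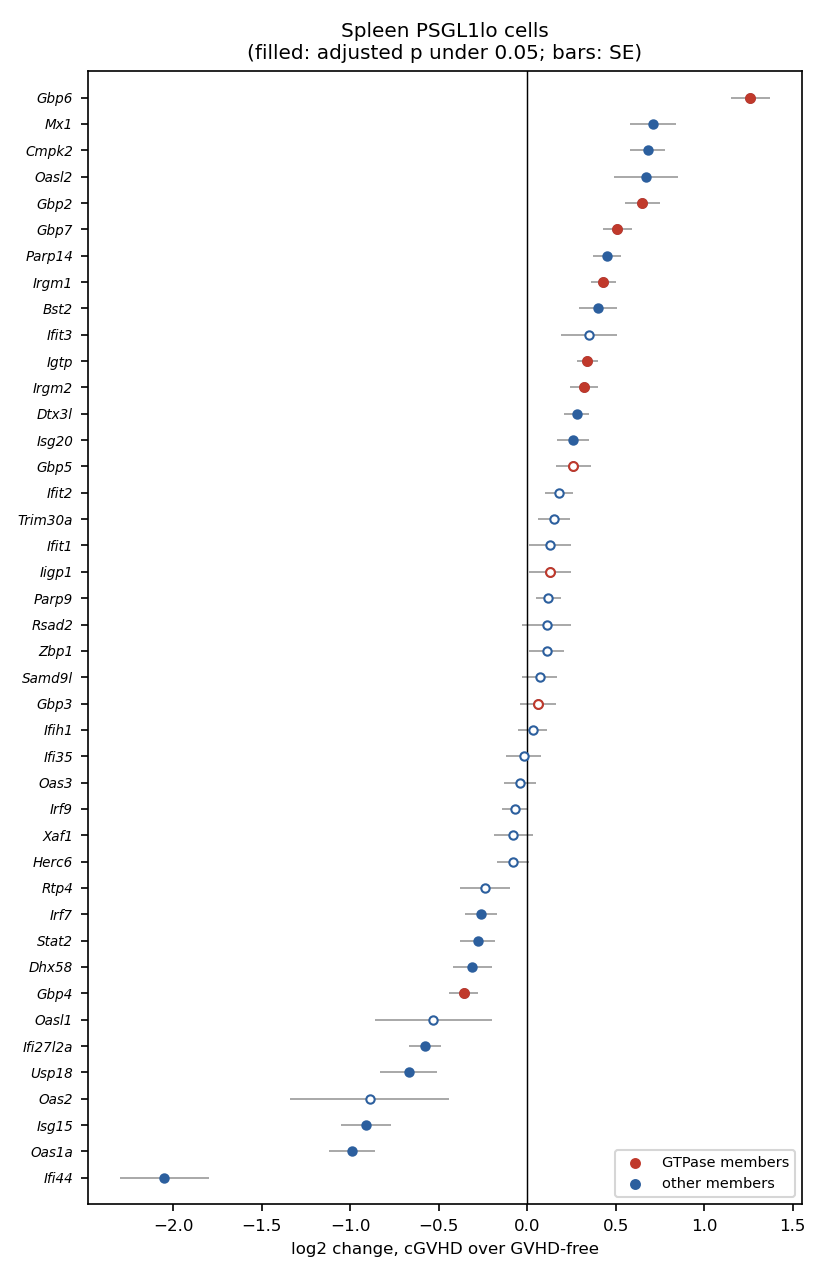
Log2 change of cGVHD over GVHD-free spleen PSGL1lo cells with SE bars for the 42 genes, ordered by size; filled points passed the test, and red marks the 10 GTPase members. Gbp6 is at the top at 1.26 and Ifi44 at the bottom at -2.05, and 9 of the 10 red points lie right of 0.

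Around the set, Ifng rose by 0.81 ± 0.08 in cGVHD cells, with 155 and 169 CPM against 90.6 and 94.9 CPM in GVHD-free cells, and Ifngr1 rose by 1.49 ± 0.07 while Ifngr2 fell by 1.14 ± 0.20 (adjusted p = 4.8e-08, 2.2e-13 and 0.00014). Irf1 rose by 0.28 ± 0.09 and Socs1 by 0.31 ± 0.11 (adjusted p = 0.021 and 0.039). Ifnar1 and Ifnar2 had log2 changes of 0.15 ± 0.08 and -0.07 ± 0.08 and did not pass. Of 15 interferon-gamma targets in antigen presentation and chemokines, 10 were higher and 1 lower in cGVHD cells, with a median of 0.44. Of the 53 other interferon-stimulated genes, 23 were higher and 8 lower. The list's largest change was that of Ifi44l, with 0.149 and 0.196 CPM in cGVHD cells, against 9.81 and 9.74 CPM in GVHD-free cells. The B cell list was lower in cGVHD cells in 7 of 9 genes, summing to 20.2 to 22.2 CPM, against 75.1 to 76.7 CPM in GVHD-free cells. The dendritic cell list was lower in 9 of 14 genes, summing to 783 to 843 CPM in cGVHD cells, against 1480 to 1530 CPM in GVHD-free cells. The myeloid list summed to 273 to 285 CPM in cGVHD cells, against 184 to 195 CPM in GVHD-free cells, with 5 of 19 tested genes higher and 3 lower. Immediate early genes summed to 6180 to 6720 CPM in cGVHD cells, against 5440 to 5750 CPM in GVHD-free cells, with 7 of 16 higher and 4 lower. The part of these lists in the result was not tested.

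Spleen was compared last, since its libraries form another series. Lung cells had less of most of the 42 genes than spleen cells, and liver cells differed gene by gene. In PSGL1lo cells 36 genes were lower and 3 higher in lung than in spleen, with a median of -0.78, where 60% of all genes tested were called, 29.6% higher and 30.4% lower. In PSGL1hi cells 30 were lower and 6 higher, with a median of -0.52, where 61.8% of all genes were called, 30.7% higher and 31% lower. With upper-quartile scaling the median over all genes in this last contrast was -0.116, against -0.023 with TMM scaling, and 34 members were lower and 5 higher. Liver had 21 lower and 9 higher in PSGL1lo cells and 18 lower and 12 higher in PSGL1hi cells, with medians of -0.19 and -0.17. Of all genes, 57.7% were called in PSGL1lo cells, 28.7% higher and 29% lower, and 57.9% in PSGL1hi cells, 28.5% higher and 29.4% lower. Of the 53 other interferon-stimulated genes, 11 were higher and 25 lower in lung than in spleen PSGL1lo cells. In PSGL1hi cells 16 were higher and 23 lower in lung. The 54 with an entry summed to 8610 to 8940 CPM in lung PSGL1lo cells, against 8640 to 8840 CPM in spleen PSGL1lo cells. In PSGL1hi cells the sums were 8150 to 8380 CPM in lung, against 7360 to 7570 CPM in spleen.

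Iigp1 was among the most reduced in lung and liver. It had 39.4 and 49.3 CPM in lung PSGL1lo cells, 74.8 and 84.7 CPM in liver PSGL1lo cells and 172 and 180 CPM in spleen PSGL1lo cells, with log2 changes from spleen of -1.99 ± 0.13 in lung and -1.14 ± 0.12 in liver. Rsad2 (viperin), which makes a chain-terminating nucleotide, had 8.44 and 11.9 CPM in lung PSGL1lo cells, 17.5 and 18 CPM in liver PSGL1lo cells and 35.9 and 40.3 CPM in spleen PSGL1lo cells, with log2 changes of -1.91 ± 0.15 and -1.11 ± 0.14. Both genes, picked for the size of their change, stepped down in the order spleen, liver, lung with no overlap. Zbp1, a sensor of left-handed nucleic acids that can start necroptosis, had 123 and 149 CPM in lung PSGL1lo cells, 201 and 189 CPM in liver PSGL1lo cells and 88.9 and 85.7 CPM in spleen PSGL1lo cells. Its log2 changes from spleen were 0.64 ± 0.09 in lung and 1.16 ± 0.09 in liver (adjusted p = 6e-06 and 1.1e-09). Liver PSGL1lo cells were also above spleen PSGL1lo cells in Isg15 by 0.92 ± 0.14 and in Stat2 by 0.86 ± 0.10, and Isg20 was higher in both tissues, by 0.76 ± 0.09 in lung and 0.54 ± 0.09 in liver. Xaf1, a partner of the apoptosis inhibitor XIAP, was higher by 0.39 ± 0.11 in lung PSGL1lo cells, a call lost without lung PSGL1lo replicate 2 (log2 0.30, adjusted p = 0.054). Ifi44 had log2 changes of -2.66 ± 0.32 in lung and -1.56 ± 0.28 in liver PSGL1lo cells. Oas2 had one of -2.03 ± 0.53 in lung, a call lost without spleen PSGL1lo replicate 1 (log2 -1.47, adjusted p = 0.065).

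In PSGL1hi cells Iigp1 and Rsad2 were again lower and Zbp1 and Stat2 higher. Log2 changes from spleen were -2.02 ± 0.13 in lung and -1.32 ± 0.12 in liver for Iigp1, and -1.61 ± 0.15 and -1.07 ± 0.15 for Rsad2. Ifi44 had log2 changes of -2.96 ± 0.36 in lung and -1.64 ± 0.31 in liver, and Oasl2 had -1.10 ± 0.19 in liver. Zbp1 had 119 and 143 CPM in lung PSGL1hi cells, 156 and 162 CPM in liver PSGL1hi cells and 66.1 and 65.3 CPM in spleen PSGL1hi cells. Stat2 rose by 0.74 ± 0.10 in lung and 1.22 ± 0.10 in liver, and Isg15 rose by 1.18 ± 0.14 in liver. Isg20 rose by 0.91 ± 0.09 in lung and 0.49 ± 0.09 in liver. Ifng was higher than in spleen in both tissues and fractions, by 0.88 ± 0.08 in lung PSGL1lo, 1.17 ± 0.07 in lung PSGL1hi, 0.64 ± 0.08 in liver PSGL1lo and 0.83 ± 0.07 in liver PSGL1hi cells.

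Other lists differed from spleen too. The 20 cell cycle genes were all lower in lung than in spleen in both fractions, and 18 in PSGL1lo and 19 in PSGL1hi cells were lower in liver. They summed to 804 to 867 CPM in lung PSGL1lo and 1380 to 1430 CPM in liver PSGL1lo cells, against 2310 to 2370 CPM in spleen PSGL1lo cells. In PSGL1hi cells they summed to 1740 to 2110 CPM in lung and 2060 to 2130 CPM in liver, against 5050 to 5310 CPM in spleen. Immediate early genes were higher in lung in 10 of 16 genes in PSGL1lo and 15 of 16 in PSGL1hi cells, and in liver 7 were higher and 5 lower in PSGL1lo and 6 higher and 6 lower in PSGL1hi cells. The myeloid list summed to 1040 to 1570 CPM in lung PSGL1lo and 48.4 to 143 CPM in liver PSGL1lo cells, against 273 to 285 CPM in spleen PSGL1lo cells. In PSGL1hi cells it summed to 933 to 1160 CPM in lung and 57.1 to 103 CPM in liver, against 569 to 576 CPM in spleen. The dendritic cell list summed to 670 to 955 CPM in lung PSGL1lo and 246 to 285 CPM in liver PSGL1lo cells, against 783 to 843 CPM in spleen PSGL1lo cells. In PSGL1hi cells it summed to 659 to 806 CPM in lung and 279 to 285 CPM in liver, against 1010 to 1020 CPM in spleen. The 9 T cell markers summed to 8970 to 9160 CPM in lung PSGL1lo and 8710 to 9380 CPM in liver PSGL1lo cells, against 5870 to 6040 CPM in spleen PSGL1lo cells. In PSGL1hi cells they summed to 8620 to 8770 CPM in lung and 8780 to 9100 CPM in liver, against 5770 to 5780 CPM in spleen. The part of these lists in the differences from spleen was not tested.

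**Figure D5:**
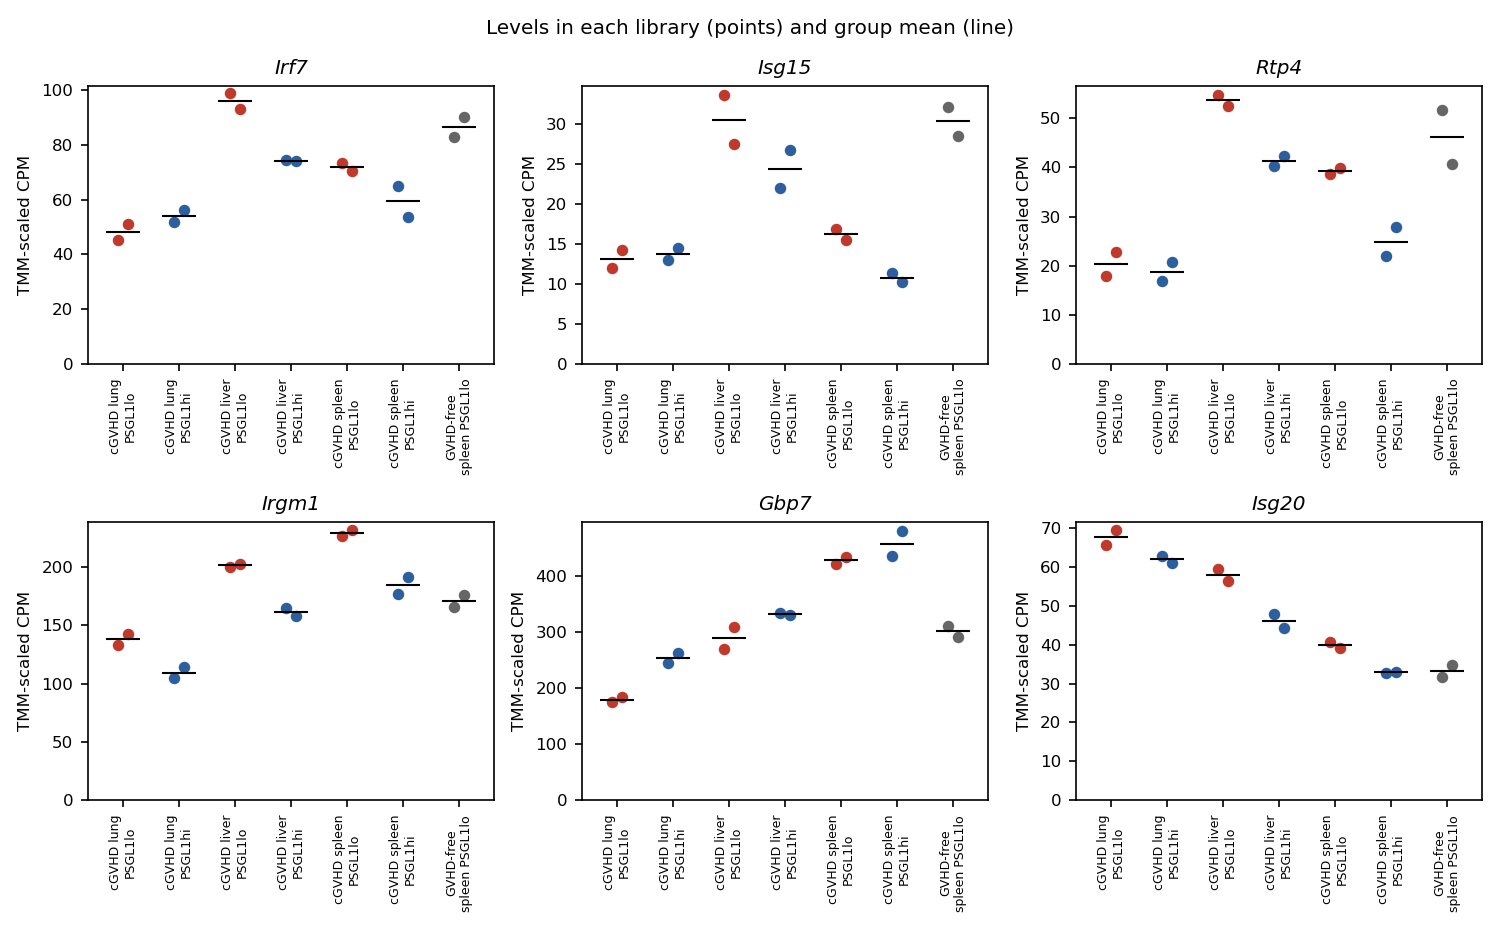
TMM-scaled CPM of 6 members in each library (points; red PSGL1lo, blue PSGL1hi, grey GVHD-free PSGL1lo) with group means (lines), for Irf7, Isg15, Rtp4, Irgm1, Gbp7 and Isg20. Rtp4 is near 20 CPM in all lung libraries, 16.8 to 22.8, and Isg20 is the one of the 6 with its highest group in lung.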

How the data were processed

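Whole-number read counts per gene were deposited by the authors for 14 libraries of sorted CD4+ T cells and are not normalised. Alignment was to mm9 with TopHat2 2.0.8 and counting with HTSeq, per the submitters' processing notes; per the labels' protocols, RNA was prepared with Qiagen RNeasy and libraries with Kapa mRNA HyperPrep. For the annotation and the strand setting, no source used here gives them. Counts are therefore uncertain for genes with near-identical copies (Tgtp1, Ifit3, Oas1a, the Gbp genes, Ifi27l2a, Trim30a, Ifit1) and for genes that overlap a neighbour in RefSeq (Parp9 and Dtx3l with each other, Stat2, Rtp4, Ifit1, Ifi27l2a). Counts went from 13222005 to 33532595 per library.

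Genes were filtered by filterByExpr and TMM-scaled in edgeR 4.0.16 (R 4.3.3), with one mean fitted per group to all 14 libraries; 7 degrees of freedom were left and the common biological variation was 7.35%. Contrasts used edgeR's quasi-likelihood test (2-sided), adjusted over 13780 genes by the Benjamini-Hochberg method, and an adjusted p under 0.05 was called. Counts of replicates differed by 2.91 to 18.2 in chi-square per degree of freedom, so none was a copy. The 18.2 was that of cGVHD liver PSGL1lo cells. Their replicate 1 had the most counts of any library, 33532595, and the fewest genes with counts, 14036, against 14985 in replicate 2. The alternatives were DESeq2 1.42.0, limma 3.58.1 (voom), RLE and upper-quartile scaling, 2 other filters, fits on the compared groups, single-library omission and a replicate block.

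The members and lists were chosen with earlier results of these data known. Values are printed for Irf7, Irf9 and Stat2, for the largest called changes of each comparison in each direction (up to 4 within the spleen or between fractions, up to 3 otherwise), and outside the members for a fixed set of pathway genes, 1 of which is not reported here, and up to 2 called genes per list. Parp14, Gbp5, Irgm1, Igtp, Gbp2, Siglech, the promoters shown and Tgtp2 were named after their values were seen. Promoters are RefSeq's; the files' build differs, so no file coordinate is given.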

Additional observations from a re-analysis of the deposited data

Results flagged for a closer look

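The change of PSGL1lo over PSGL1hi cells differed between tissues for 16 pairs of gene and contrast, by the test of the difference itself (edgeR, adjusted over all genes tested). Lung minus liver, the log2 differences were -0.54 for Irf7, -0.46 for Oas3, -0.4 for Igtp and 0.44 for Ifi27l2a. Lung minus spleen, they were -0.83 for Mx1, -0.69 for Oas3, -0.65 for Isg15, -0.54 for Stat2, -0.54 for Parp14, -0.49 for Dtx3l, -0.45 for Irf7, -0.44 for Gbp4, -0.42 for Samd9l, -0.4 for Gbp7, -0.37 for Igtp and 0.56 for Ifi27l2a. Irf7, Oas3, Igtp and Ifi27l2a had a difference in both tests, which share the lung libraries. Of these calls, that of Igtp for lung minus liver and those of Mx1, Oas3, Parp14, Dtx3l, Ifi27l2a, Gbp4 and Igtp for lung minus spleen were kept in every alternative; the others were lost in at least 1.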

How the results depend on the processing

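Each comparison was refitted under every alternative in turn. Of 302 calls of a member in a comparison, compared with 3688 refits, 0 changed sign, 294 refits lost the call, and 95 calls were lost at least once. Leaving out 1 library gave 14 to 18 members called in disease (22 with all libraries), and for PSGL1lo over PSGL1hi 14 to 16 in lung (18), 6 to 16 in liver (17) and 17 to 20 in spleen (25). For lung over liver it gave 30 to 36 in PSGL1lo cells (37) and 23 to 31 in PSGL1hi cells (32). Over spleen it gave 36 to 38 for lung (39) and 24 to 28 for liver (30) in PSGL1lo cells, and 32 to 35 for lung (36) and 22 to 28 for liver (30) in PSGL1hi cells. The difference of the PSGL1lo effect was called for 1 to 8 members between lung and liver (4), 8 to 16 between lung and spleen (12) and 0 to 8 between liver and spleen (0). Lung minus liver gave 2 when only its own groups were fitted, which leaves fewer samples; liver minus spleen gave 1 with DESeq2, 1 with limma voom and 1 with no filter on low counts, and the cause was not tested. Changes that did not pass with all libraries turned in sign when 1 library was left out for Irf7 in lung over spleen PSGL1hi cells (-0.26 to 0.02) and, for liver minus spleen, for Irf7 (-0.05 to 0.22) and Irf9 (-0.07 to 0.02). Whether the replicate numbers pair the samples cannot be told with 2 libraries per group. Deviations of same-numbered libraries correlated at -0.16 to 0.17 over 9 pairs of groups, 1 of them over 0.1. Between the PSGL1lo and PSGL1hi cells of a tissue the correlation was 0.17 in lung, 0.08 in liver and 0.1 in spleen. A replicate block gave 22 called in disease, 19, 18 and 26 for PSGL1lo over PSGL1hi in lung, liver and spleen, 37 and 33 for lung over liver in PSGL1lo and PSGL1hi cells, 38 and 35 for lung over spleen and 27 and 28 for liver over spleen in the same order, and 3, 11 and 0 for the lung minus liver, lung minus spleen and liver minus spleen differences. With 2 libraries per group, Oas2, Oasl1 and Ifi44, which had under 1 CPM or a few CPM in lung, are the members limited most by depth.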
